A study of Arabidopsis thaliana with 12 samples.

Results

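GLR2.7, AT4G32060, PRA1.B6 and CSLA01 are 4 Arabidopsis thaliana genes whose products act mainly outside the plastid, in calcium transport, the endomembrane system and the synthesis of wall glucomannan. They are 4 of the 691 genes with a probe of their own on an expression array of 3439 probes, and were taken by probe number. The genes were chosen by their intensities in these same samples: their probes were among those with the smallest p-values for the difference between mutant and wild type. Their differences are therefore given as a description, without a test. Each of the 4 probes is annotated with a single gene, and 0 other probes name any of the 4.

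The study compared the toc132 mutant with the wild type (WT), both of ecotype Columbia 0, with 6 samples of total RNA in each group, numbered 1 to 6. TOC132 sits in the outer chloroplast membrane, where it recognises proteins made in the cytosol for import, and per the labels this import is impaired in the mutant. The sources used here give no allele, number of mutant lines, organ, age or growth conditions. Whether each sample came from its own plants is not stated, so a p-value here reflects the spread of these samples alone, and that spread may be technical.

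GLR2.7 (AT2G29120) belongs to the glutamate receptor-like family, plant relatives of the ionotropic glutamate receptors of animals, which form cation channels that can let calcium into the cytosol. AT4G32060 encodes a calcium-binding protein with EF hands that regulates the uptake of calcium into mitochondria through the uniporter. PRA1.B6 (AT5G07110) is a member of the prenylated Rab acceptor family, small membrane proteins of the secretory and endosomal pathway whose mammalian relative binds prenylated Rab GTPases. CSLA01 (AT4G16590) is a cellulose synthase-like A protein, of the family that builds the backbone of glucomannan in the Golgi from GDP-mannose and GDP-glucose.

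The deposited intensities were in arbitrary units between 0 and 100, summed to between 3536 and 3857 per sample, and were at 0 for between 174 and 277 probes of a sample. The number of arrays limits the precision. The samples of each group came in 3 sets of consecutive numbers, a structure recognised from the data and not stated in the labels. Pearson's r of log2 intensities across probes, which are not independent replicates, was 0.901 to 0.975 within a set, 0.806 to 0.894 between sets of toc132 and 0.533 to 0.723 between sets of WT. For WT samples 1 and 2 the median r was 0.909 with the toc132 samples and 0.626 with the other WT samples. They lay nearer to toc132 than to the other WT samples, so values without them are given with the results below. The WT sets all differed from one another, however. WT samples 5 and 6 had limma array weights (0.384 and 0.386) as low as those of WT samples 1 and 2 (0.400 and 0.402). No probe names TOC132, so the mutated gene gave no check of the labels. Whether the labels of samples 1 and 2 were exchanged between the groups was not tested; an exchange would turn the sign of every difference given for these numbers. For toc132 samples 1 and 2 the median r was 0.852 with the other toc132 samples and 0.596 with WT samples 3 to 6. None of the 30 gene symbols chosen as markers of green tissue, root, seed, pollen, phloem or xylem had a probe of its own. These symbols thus gave no check of the tissue either. In such bulk RNA, fewer cells that express a gene and less transcript per cell cannot be told apart.

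In limma over 3190 probes with Benjamini-Hochberg adjustment, 0 probes passed an adjusted p of 0.05 (0%), while 807 had an unadjusted p under 0.05 (25.3%). A fit with sample number as a replicate block passed 21 probes (0.658%). Without WT sample 1 the count was 393, without WT sample 2 it was 423, and without both it was 1133. What raised the count without WT samples 1 and 2 was not tested, and each of these fits treats the paired samples within a set as independent. With each set averaged to 1 value, 0 of 3244 probes passed, and 150 of the 3244 had an unadjusted p under 0.05 in limma. That share was far below the 25.3% of the fit that counts the paired samples as independent.

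GLR2.7 was lower in toc132 than in WT, by amounts that differed between the sets of samples. Its deposited intensity had a lowest value of 0.675, a median of 0.815 and a highest value of 1.04 in toc132, against 0.896, 1.93 and 3.51 in WT. After quantile normalisation of the log2 values its mean was -0.30 ± 0.19 in toc132 and 0.73 ± 0.56 in WT (SD, n = 6 each). The log2 difference, toc132 minus WT, was -1.03 ± 0.26 (SE), or 0.489-fold of WT. That SE counts the 6 samples of a group as independent. With each set averaged first it was 0.436. Both are moderated SEs of limma, which draw on the spread of all probes, as are the SEs given below. The groups did not overlap on that scale, but in the deposited intensities they did: toc132 samples 1 and 2 (1.04 and 0.909) reached the level of WT samples 1 and 2 (0.896 and 0.969). Values of the remaining WT samples ran from 1.80 to 3.51, above all 6 toc132 samples.

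The difference of GLR2.7 varied over the sets of numbers. Numbers 1 and 2 gave -0.50, numbers 3 and 4 gave -0.83, and numbers 5 and 6 gave -1.76 (log2, quantile normalised). The mean over the 3 sets was -1.03 ± 0.65 (SD, n = 3 sets). In the values as deposited the difference for numbers 1 and 2 turned to 0.058, against -1.24 for 3 and 4 and -2.001 for 5 and 6. The toc132 sets lay close together, at -0.36, -0.10 and -0.44, and the WT sets far apart, at 0.14, 0.73 and 1.32 (log2 means of numbers 1 and 2, 3 and 4, and 5 and 6). The SD over samples was thus 3.05 times as large in WT as in toc132, where the median ratio over the 2907 probes above 0 in all samples was 1.56 and 19.3% of those probes had a ratio at least as large. Within sets the largest gap between the paired samples was 0.58, between WT 5 and WT 6. Without WT samples 1 and 2 the difference was -1.33, and leaving numbers 5 and 6 out of both groups gave -0.67.

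AT4G32060, the regulator of mitochondrial calcium uptake, was higher in toc132. Its deposited intensities had a lowest value of 3.65, a median of 4.04 and a highest of 6.20 in toc132, against 1.81, 2.93 and 3.45 in WT. All toc132 samples lay above all WT samples, both as deposited and after quantile normalisation. The normalised log2 mean was 2.22 ± 0.27 in toc132 and 1.31 ± 0.46 in WT (SD, n = 6 each), a difference of 0.91 ± 0.24 (SE, 0.428 with sets averaged), or 1.88-fold of WT. By set the difference was 0.67 (numbers 1 and 2), 1.17 (3 and 4) and 0.88 (5 and 6), with a mean of 0.91 ± 0.25 (SD, n = 3 sets).

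Samples 3 and 4 were the low ones in both genotypes for AT4G32060. Their set mean was 1.90 in toc132 and 0.73 in WT, while the other sets stood at 2.28 and 2.48 in toc132 and at 1.61 and 1.60 in WT. The gap between these sets within WT was thus about as large as the difference between the genotypes. WT samples 1 and 2 lay about level with WT 5 and 6 (set means of 1.61 and 1.60), and without WT 1 and 2 the difference was 1.06. The direction for numbers 1 and 2 depended on the scaling. With median centring it turned to -0.25, where it was 0.46 as deposited and 0.59 with cyclic loess. Median centring uses the column medians of the log2 values above 0. These were -0.63 and -0.62 in toc132 samples 1 and 2 and -1.34 and -1.34 in WT samples 1 and 2. For numbers 3 and 4 the medians ran the other way, at -1.28 and -1.28 in toc132 and -0.73 and -0.73 in WT.

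**Figure D1:**
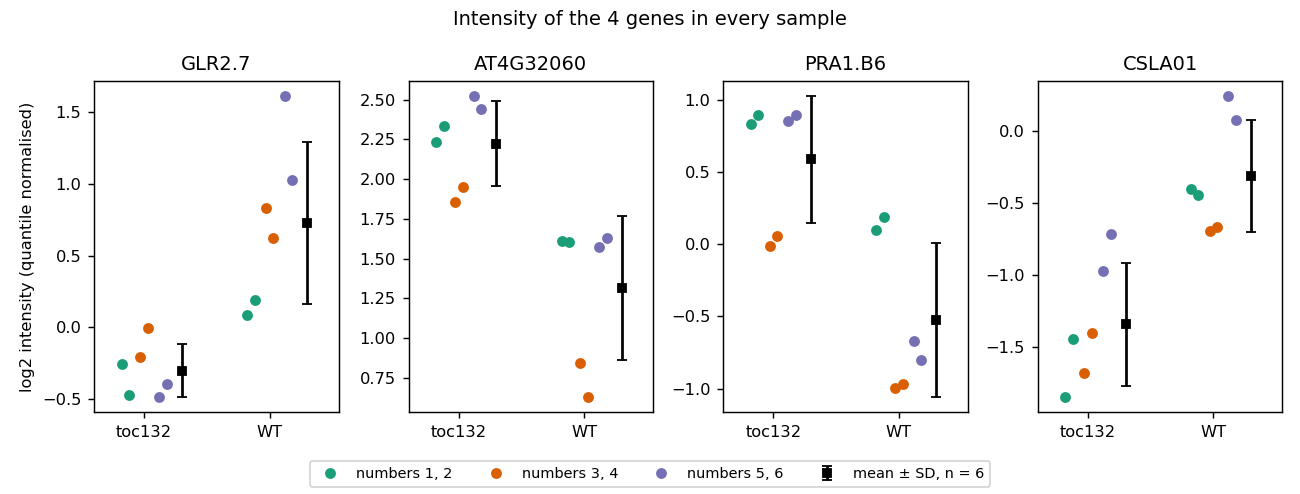
Log2 intensity after quantile normalisation (vertical axis, arbitrary units, a separate range for each gene) of the 4 genes in the 6 toc132 and 6 WT samples, coloured by set of sample numbers; black squares with bars are the group mean ± SD (n = 6). The toc132 samples lie below the WT samples for GLR2.7 and CSLA01 and above them for AT4G32060, while for PRA1.B6 toc132 samples 3 and 4 lie below WT samples 1 and 2.

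PRA1.B6, the Rab acceptor family member, was also higher in toc132, at 2.16-fold of WT. In the deposited intensities the lowest value was 0.869, the median 1.77 and the highest 1.94 in toc132, against 0.519, 0.630 and 0.970 in WT. The groups overlapped on both scales, because toc132 samples 3 and 4 (0.869 and 0.917 as deposited) met WT samples 1 and 2 (0.903 and 0.970). Normalised log2 means were 0.59 ± 0.44 in toc132 and -0.53 ± 0.53 in WT (SD, n = 6 each), with a difference of 1.11 ± 0.29 (SE, 0.474 with sets averaged). The toc132 member of each same-numbered pair was the higher one for all 6 numbers.

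For PRA1.B6 the difference also varied over the sets after quantile normalisation, being 0.72 in samples 1 and 2, 1.01 in samples 3 and 4 and 1.62 in samples 5 and 6. The mean over sets was 1.11 ± 0.46 (SD, n = 3 sets). As deposited the order was not the same, with 1.01 for the first of these sets, 0.50 for the second and 1.70 for the last. The toc132 set means of 0.86, 0.023 and 0.88 had their low point at samples 3 and 4, and the WT set means of 0.15, -0.98 and -0.74 had their high point at samples 1 and 2. Without WT samples 1 and 2 the difference was 1.45. The paired samples of a set differed by at most 0.13, so the spread within a group lay almost wholly between sets (99.2% of the sum of squares).

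CSLA01, of the glucomannan synthase family, was lower in toc132 by about the same amount as GLR2.7 but evenly over the sets. Deposited intensities had a lowest value of 0.270, a median of 0.446 and a highest of 0.576 in toc132, against 0.612, 0.783 and 1.19 in WT. The groups did not overlap as deposited or after quantile normalisation, where the highest toc132 value (-0.71, sample 6) lay just under the lowest WT value (-0.69, sample 3). The normalised log2 mean was -1.35 ± 0.43 in toc132 and -0.31 ± 0.39 in WT (SD, n = 6 each), a difference of -1.03 ± 0.26 (SE, 0.435 with sets averaged), or 0.489-fold of WT.

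By set the log2 difference of CSLA01 was -1.23 in samples 1 and 2, -0.86 in samples 3 and 4 and -1.01 in samples 5 and 6. Its SD over the 3 sets was 0.18, against 0.65 for GLR2.7, whose mean difference was the same. As deposited the 3 differences were less even, at -0.46, -1.41 and -1.07. Samples 5 and 6 were the high ones in both genotypes, with a set mean of -0.84 in toc132 and 0.16 in WT, and the other sets lay between -1.65 and -1.54 in toc132 and between -0.68 and -0.42 in WT. Without WT samples 1 and 2 the difference was -1.09. Of the 4 genes CSLA01 had the dimmest probe, with 39.4% of all probes brighter by mean log2 intensity, against 15.6% for GLR2.7, 18.4% for PRA1.B6 and 3.92% for AT4G32060. Brightness of different probes does not rank their transcripts.

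**Figure D2:**
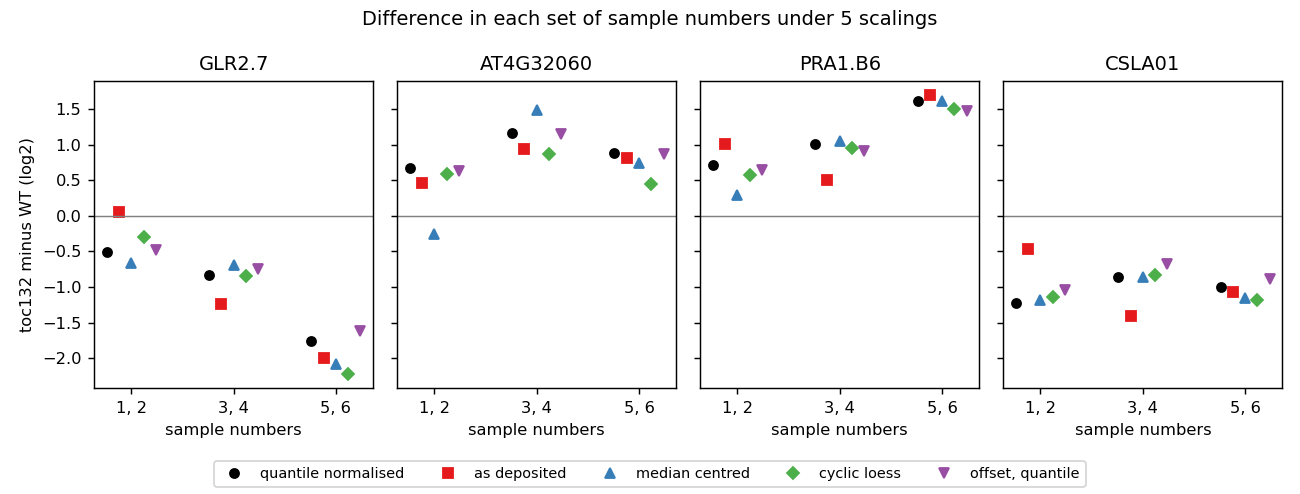
Difference of toc132 minus WT (vertical axis, log2) in each set of sample numbers (horizontal axis), for each of the 4 genes under 5 scalings of the columns. For numbers 1 and 2, GLR2.7 as deposited (0.058) and AT4G32060 with median centring (-0.25) lie on the other side of 0; the remaining points of each gene lie on 1 side.

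Counted together, 3 of the 4 genes had groups without overlap after quantile normalisation, where 2.61% of the 2907 complete probes did, and 2 of 4 in the deposited intensities, where 2.72% did. These shares are the background only, since the comparison that chose the genes is the one counted. The same direction in all 3 sets was seen for 4 of 4 genes after normalisation, against 38% of probes. A difference past 0.5 (log2) in 1 direction in all 3 sets was seen for 4 of 4 genes after normalisation (6.33% of probes) and for 1 of 4 as deposited (8.6%). The 1 gene was PRA1.B6, whose difference for numbers 3 and 4 was 0.503. AT4G32060 and CSLA01 missed it at numbers 1 and 2, with 0.459 and -0.463. All 6 numbers had the same direction for 4 of 4 genes after normalisation, against 25.9% of probes. In the deposited values GLR2.7 had it for 5 of 6 numbers and each of the others for 6 of 6, against 18.3% of probes with 1 direction throughout. A difference of at least 2-fold was seen for 3 of 4 genes, all but AT4G32060, and for 16.2% of the 3190 probes.

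How the genes varied together was read from the deviation of each sample from the mean of its own group, which takes the difference between toc132 and WT out. The correlations below are descriptions over 12 samples that share a set in pairs, so they rest on 3 sets in each group, and no p is given. Most of the spread within groups lay between the sets, from 86.0% of the sum of squares for GLR2.7 and 90.0% for CSLA01 to 97.4% for AT4G32060 and 99.2% for PRA1.B6. The median over the 2907 probes was 91.1%, with 2 of the 4 genes above it and 2 below.

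AT4G32060 and PRA1.B6, the 2 genes higher in toc132, varied in the same direction. Pearson's r of their deviations was 0.74 and Spearman's rho 0.60 over the 12 samples, with r of 0.93 within toc132 and 0.66 within WT (n = 6 each). An r of at least this size in either direction was found with 11.4% of the other probes for AT4G32060 and with 11.9% for PRA1.B6. In the values as deposited the same r was 0.31. The shared feature was the low position of samples 3 and 4 in both genotypes. The genes parted at WT 5 and 6, where AT4G32060 lay above its group mean (0.26 and 0.31) and PRA1.B6 below it (-0.15 and -0.28).

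GLR2.7 and CSLA01, the 2 genes lower in toc132, did not vary together in both groups. Their r was 0.32 over the 12 samples, 0.67 within WT and -0.46 within toc132. Both were high in WT samples 5 and 6, where GLR2.7 deviated by 0.88 and 0.30 and CSLA01 by 0.56 and 0.39. In toc132 samples 5 and 6 CSLA01 was again above its mean (0.37 and 0.63), and GLR2.7 was below it (-0.18 and -0.090). An r of this size or larger in either direction was common, with 69.1% of the probes for GLR2.7 and 66.8% for CSLA01.

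Across the pairs with opposite directions in toc132, CSLA01 and AT4G32060 had an r of 0.65, with 0.65 within toc132 and 0.71 within WT. An r of at least that size was found with 27.2% of the other probes for CSLA01 and 19.4% for AT4G32060. GLR2.7 ran against PRA1.B6, with an r of -0.65, -0.82 within toc132 and -0.66 within WT. An r of that size was found with 28.5% of the other probes for GLR2.7 and 21.2% for PRA1.B6. In WT samples 1 and 2 both genes deviated towards toc132, by -0.64 and -0.54 for GLR2.7 and 0.63 and 0.72 for PRA1.B6. How much of the r of this pair rests on these samples was not tested. GLR2.7 and AT4G32060 had an r of -0.13, with -0.84 within toc132 and 0.0014 within WT. For PRA1.B6 and CSLA01 it was 0.19, with 0.40 within toc132 and -0.0030 within WT. The 4 genes thus did not follow 1 common pattern over the samples.

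**Figure D3:**
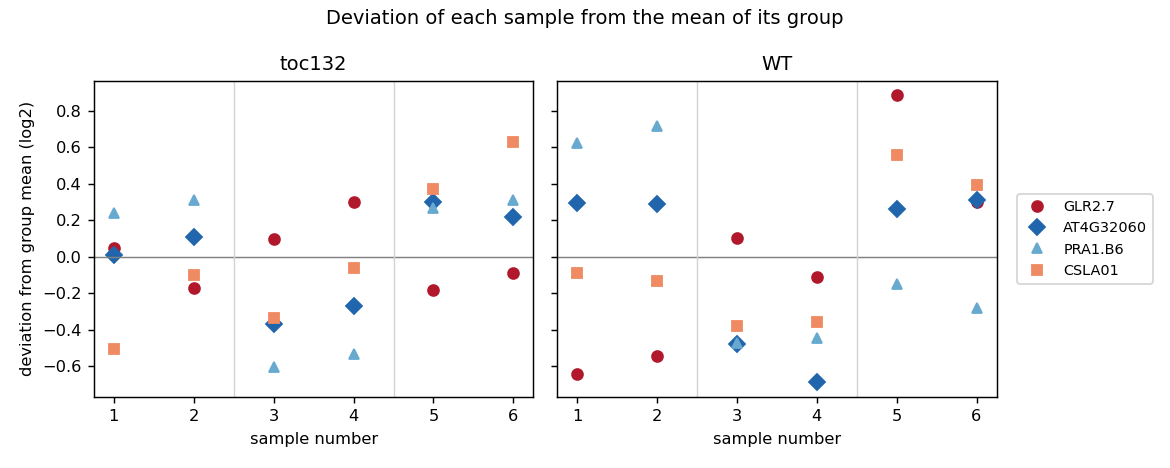
Deviation of each sample from the mean of its own group (vertical axis, log2) for the 4 genes, in toc132 samples 1 to 6 (left) and WT samples 1 to 6 (right); grey lines part the sets of numbers. AT4G32060 and PRA1.B6 are lowest in samples 3 and 4 of both groups, CSLA01 is highest in samples 5 and 6 of both, and GLR2.7 has its widest spread in WT.

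The genes most like each of the 4 in these deviations were looked up among 474 other probes with a single gene, above 0 in all samples and outside the dimmest 25%. For GLR2.7 they were SIRB (r = 0.93), RALFL32 (0.91) and AT4G33500 (0.91). SIRB is the ferrochelatase of siroheme synthesis and RALFL32 a peptide of the RALF family. For AT4G32060 they were AT1G32220 (0.93), AT1G44920 (0.91) and AT1G32160 (0.91). For PRA1.B6 they were AT4G09040 (0.91), AT3G56010 (0.90) and AT5G15390 (0.87). CSLA01 was most like AT5G23540 (0.94), AT5G52960 (0.92) and AT3G58610 (0.91), the last of which encodes ketol-acid reductoisomerase of branched-chain amino acid synthesis. Each r is over the 12 samples. The highest r with any of 2906 probes, named or not, was 0.93 for GLR2.7, 0.97 for AT4G32060 and PRA1.B6 and 0.95 for CSLA01.

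Other genes of the same families and pathways were sparsely covered. Of 363 genes in 11 lists, 7 had a probe of their own that was tested, and 4 of these are the genes described above. The other 3 were CML41, CML30 and PRA1.B3, and 0 of the 3 passed in limma over all probes, where 0% of probes did; CML41 alone had an unadjusted p under 0.05, as did 25.3% of all probes. The lists of other calcium channels, pumps and exchangers, Rab GTPases, SNAREs and coats, mannan cofactors and mannanases, and GDP-mannose supply had no such probe, nor had the other cellulose synthase-like families. AT4G32060 was the single gene in the list of mitochondrial calcium uptake, to which it was added by identifier. Matching by symbol found no other gene for that list, so other genes of this uptake were not looked at.

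CML41, a calmodulin-like calcium sensor, had deposited intensities with a lowest value of 0.860, a median of 1.27 and a highest of 1.53 in toc132, against 0.188, 0.363 and 1.26 in WT. Its log2 difference was 1.29 ± 0.47 (SE), with a limma adjusted p of 0.135 and 0.0827 with the replicate number as a block. Higher in toc132 for 5 of 6 numbers, it had differences of -0.13, 2.37 and 1.64 in the 3 sets. CML30, another calmodulin-like gene, had a difference of -0.0023 ± 0.17 (SE, limma adjusted p = 0.996).

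PRA1.B3, of the same subfamily as PRA1.B6, had a lowest value of 0.108, a median of 0.417 and a highest of 0.538 in toc132, against 0.167, 0.444 and 0.866 in WT (deposited intensity). The log2 difference was -0.62 ± 0.49 (SE), with a limma adjusted p of 0.415. By set it was 0.46, -1.59 and -0.74, so its direction was opposite to that of PRA1.B6 in numbers 3 to 6. A further 3 tested probes are annotated with 2 or 3 PRA1 genes each. Their log2 differences were -0.80 ± 0.46, 0.093 ± 0.31 and 0.56 ± 0.30 (SE), and 0 of the 3 passed in limma. The signs thus differed, but as PRA1.B3 and these probes did not pass, no direction of the family can be read from them. PRA1.B3 was brighter than 36.6% of probes, and the probe at 0.093 than 15.5%.

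GLR2.7 lies next to GLR2.8 and GLR2.9 in the RefSeq annotation (assembly TAIR10.1), used here for names and neighbours alone. The 3 are close relatives, and whether the probe of GLR2.7 also takes up transcripts of the other 2 was not tested. A single probe annotated jointly with both neighbours was dim, brighter than 12.6% of probes, with 1 WT sample at 0 that the fit left out. Its log2 difference was 0.95 ± 0.80 (SE), with a limma adjusted p of 0.450. So dim and variable a probe (SD of 2.20 in WT on the log2 scale) bears no comparison with GLR2.7. For CSLA01, 0 other members of its family of 9 had a probe. Probes shared by 4 and 3 genes of the related CSLC family, which makes the xyloglucan backbone, had log2 differences of -0.072 ± 0.36 and -0.997 ± 0.40 (SE), with limma adjusted p of 0.911 and 0.156.

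**Figure D4:**
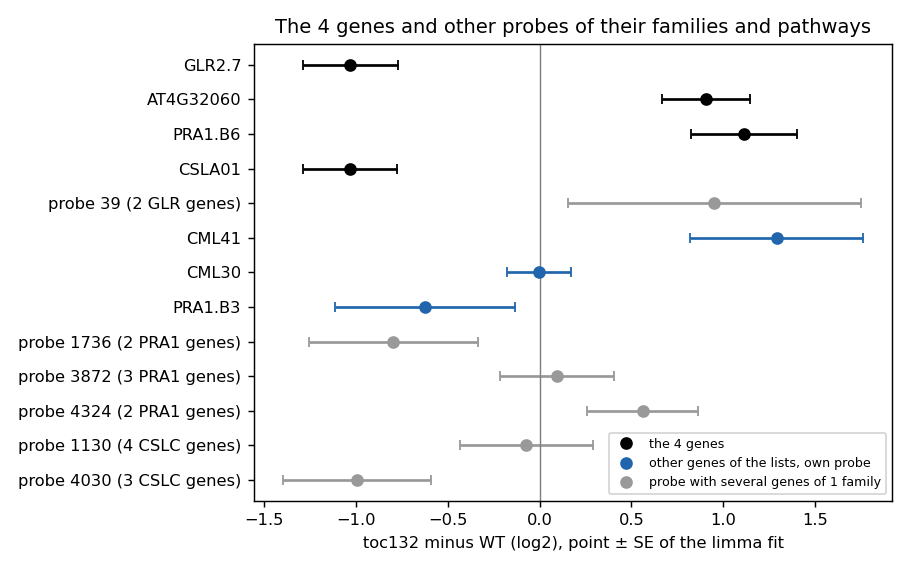
Difference of toc132 minus WT (horizontal axis, log2) with the SE of the limma fit for the 4 genes (black), the 3 other listed genes with a probe of their own (blue) and 6 probes annotated with several genes of 1 family (grey). CML41 (1.29) lies on the side of AT4G32060 and PRA1.B6, while CML30 of the same list lies near 0 (-0.0023). The probes of the PRA1 family lie on both sides of 0.

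Under all 32 alternatives per gene, which included other scalings, filters, variance models, and samples or sets left out, the difference over all samples kept its direction for each of the 4 genes. It lay between -1.33 and -0.67 for GLR2.7, between 0.62 and 1.24 for AT4G32060, between 0.86 and 1.45 for PRA1.B6 and between -1.28 and -0.79 for CSLA01. Without WT samples 5 and 6 alone it was -0.74 for GLR2.7, 1.05 for AT4G32060, 1.01 for PRA1.B6 and -0.79 for CSLA01. Without WT samples 1 and 2 alone it was -1.33, 1.06, 1.45 and -1.09 in the same order. Since the genes were picked for their difference in these samples, a kept direction is no sign of stability.

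**Figure D5:**
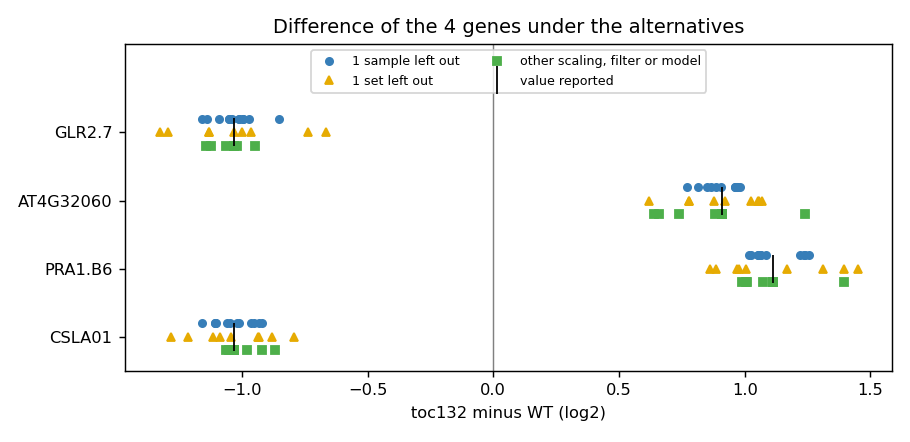
Difference of toc132 minus WT over all samples (horizontal axis, log2) for the 4 genes: the value reported (black bar), with 1 sample left out (blue), with 1 set left out in 1 or both groups (yellow) and with another scaling, filter or model (green). GLR2.7 ranges from -1.33 to -0.67 and PRA1.B6 from 0.86 to 1.45, and no point crosses 0.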

How the data were processed

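The authors deposited 1 table of linear intensity values, 1 per probe and sample, on an arbitrary scale. How the array was made, scanned, background-corrected and scaled is not given in the sources used here, which leaves exact zeros unexplained. Sample titles gave the groups and numbers; every column had a sample.

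Zeros were set to missing, the rest put on the log2 scale and quantile normalised, because the column medians differed by 0.72 (log2). This removes the difference in interquartile range between the groups, 1.56 to 1.89 in toc132 and 1.92 to 2.08 in WT, and moved the median difference of all probes to -0.063, where it was 0.028 as deposited. A probe needed at least 4 values per group, which left 3190 of 3439. Probes with 1 annotated gene numbered 692, with several 870 and with none 1877.

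The groups were compared with limma 3.58.1 (lmFit and eBayes, 2-sided) in R 4.3.3 on the whole table, with Benjamini-Hochberg adjustment and a threshold of 0.05, and without a block. The script was tested on simulated data with independent samples and no sets, so that test does not cover the set structure seen here. Figures were drawn with matplotlib 3.10.9. Members, lists and alternatives were chosen with earlier results of these data known. Named genes were the 4 members, the 3 genes most like each, and the listed genes with a probe. Lists were matched by RefSeq symbol, and AT4G32060 was added to its list by identifier.

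Numbers were taken to pair the samples: deviations of same-numbered toc132 and WT samples correlated across probes at 0.15 to 0.44, above the limit of 0.1 in all 6 pairs, and 11 of 12 samples correlated best with their own number. The other number of a set correlated at 0.15 to 0.33. The reported SEs come from the fit without this pairing. With the number as a block they were 0.253 for GLR2.7, 0.157 for AT4G32060, 0.192 for PRA1.B6 and 0.160 for CSLA01. That fit counts the 6 numbers as independent, though they come in 3 sets.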

Additional observations from a re-analysis of the deposited data

How the results depend on the processing

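The count of 0 probes passing in limma became 2 with an offset of 0.1 before log2, 1 without the dimmest 25% of probes, 1 with a trended robust eBayes, 21 with the replicate block and 1162 with array weights. Leaving out each sample gave 0 to 423: WT 1 left out gave 393, WT 2 gave 423, and each of the other 10 gave 0. Leaving out numbers 1 and 2 gave 1133 in WT and 831 in both groups, and leaving out numbers 5 and 6 in toc132 gave 2; the causes were not tested. It stayed 0 in the remaining settings. The block changed no call of a listed gene.

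All 128 alternative values of the 4 differences kept their direction and lay within 1 SD over samples, pooled over both groups (0.420 for GLR2.7, 0.373 for AT4G32060, 0.489 for PRA1.B6 and 0.41 for CSLA01), of the value reported; with 1 sample left out they lay between -1.16 and -0.85 for GLR2.7, 0.77 and 0.98 for AT4G32060, 1.02 and 1.26 for PRA1.B6, and -1.16 and -0.92 for CSLA01. Of 48 differences by set, 2 changed direction. GLR2.7 turned to 0.058 for numbers 1 and 2 as deposited, and AT4G32060 to -0.25 for numbers 1 and 2 with median centring. A further 5 moved by more than that SD: as deposited, PRA1.B6 to 0.50 and CSLA01 to -1.41 for numbers 3 and 4, and CSLA01 to -0.46 for 1 and 2; with cyclic loess, GLR2.7 to -2.23 and AT4G32060 to 0.46 for 5 and 6. The causes were not tested.

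The correlations of deviations depended more on the setting. For GLR2.7 with AT4G32060, r turned to 0.20 with median centring, 0.37 with cyclic loess and 0.0014 in WT alone, and was -0.84 in toc132 alone. For GLR2.7 with CSLA01 it turned to -0.46 in toc132 alone, and was 0.67 in WT alone and 0.57 as deposited. For PRA1.B6 with CSLA01 it turned to -0.0030 in WT alone and was 0.40 in toc132 alone. GLR2.7 with PRA1.B6 came to -0.44 with cyclic loess, AT4G32060 with PRA1.B6 to 0.31 as deposited, and AT4G32060 with CSLA01 to 0.88 with cyclic loess. No measure of signal over background was at hand, so its limits are unknown.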
